A study of Homo sapiens with 16 samples.

Results

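The regions described here are gene promoters that carried the transcription factor ZBTB7A in every ZBTB7A data set of the study and carried no listed BCL11A. They were chosen by measured values, namely the presence of regions in 4 deposited lists, so presence in these lists is what selected them and is not a finding. A region of the K562 ZBTB7A list was taken when its midpoint lay within 1 kb of the start of a protein-coding (NM) transcript, when at least 1 bp of it was overlapped in both HUDEP-2 ZBTB7A lists, and when no BCL11A region overlapped it. This gave 2409 regions of the 17331 unique K562 regions on standard chromosomes. They were 33.3% of the 7242 K562 promoter regions off chromosome 11, which was left out because the HUDEP-2 ZBTB7A lists use a modified chromosome 11. Of the 3770 promoter regions common to the 3 ZBTB7A lists, 2409 (63.9%) had no BCL11A region and 1361 had one.

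The study measured where BCL11A and ZBTB7A sit on DNA by chromatin immunoprecipitation with sequencing (ChIP-seq), in 16 libraries of which 8 were controls. ZBTB7A was precipitated from HUDEP-2 cells, an immortalised human erythroid progenitor line, that lacked the Gγ-globin gene HBG2 and carried either the 195C>G change in the remaining γ-globin promoter or the wild-type (WT) promoter, with 1 ChIP and 1 control library each. It was also precipitated from K562 cells, a human erythroleukaemia line, with 4 ChIP and 4 control libraries. BCL11A was precipitated through a V5 tag from HUDEP-2 cells carrying an inducible BCL11A-ER-V5 fusion protein, 24 h after 4-hydroxytamoxifen was added at 1e-07 M, with 2 ChIP and 2 control libraries. The BCL11A list therefore records a tagged, induced protein and not the native one. The sample titles call the controls input and the antibody labels name an immunoglobulin. The K562 and BCL11A lists pool replicates and the 195C>G and WT lists come from 1 library each, so no spread between replicates can be given and no test was made. Read depth is unknown. A signal is a mean over cells, so fewer bound cells and less binding per cell cannot be told apart.

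ZBTB7A, also called LRF, is a zinc-finger protein of the BTB family that acts mostly as a repressor, helps erythroid cells to mature and silences fetal globin. BCL11A is another zinc-finger repressor and the best known silencer of the γ-globin genes in adult red cells. Both recruit corepressor complexes such as NuRD, and both are also found at many promoters of widely expressed genes outside the globin locus. The core of the element that ZBTB7A is known to bind reads GACCC, and that of BCL11A reads TGACCA.

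Promoter sequence is shown for 8 of the regions that ranked highest in the lists or lay at shared promoters, because these letters show how the ZBTB7A core does and does not accompany a strong region. Each is the RefSeq window (GRCh38.p14) of 250 bp before to 50 bp after a start of the gene, printed in the direction of the gene. This start need not be the nearest start used for distances below. All 300 bases of each window lay inside the K562 region. Capitals mark GACCC, or GGGTC where it lies on the opposite strand. The windows of TNFAIP1 (chr17:28335511-28335810, plus strand), CIB2 (chr15:78131486-78131785, minus strand), SLC12A4 (chr16:67968645-67968944, minus strand), ARPC4 (chr3:9792268-9792567, plus strand) and ASXL1 (chr20:32358081-32358380, plus strand) hold the core close to a summit.
TNFAIP1: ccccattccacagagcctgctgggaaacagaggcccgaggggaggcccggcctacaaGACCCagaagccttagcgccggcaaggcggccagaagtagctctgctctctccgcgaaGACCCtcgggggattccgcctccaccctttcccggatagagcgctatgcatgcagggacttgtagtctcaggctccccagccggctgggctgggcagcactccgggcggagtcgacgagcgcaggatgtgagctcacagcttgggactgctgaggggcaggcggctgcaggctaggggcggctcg
CIB2: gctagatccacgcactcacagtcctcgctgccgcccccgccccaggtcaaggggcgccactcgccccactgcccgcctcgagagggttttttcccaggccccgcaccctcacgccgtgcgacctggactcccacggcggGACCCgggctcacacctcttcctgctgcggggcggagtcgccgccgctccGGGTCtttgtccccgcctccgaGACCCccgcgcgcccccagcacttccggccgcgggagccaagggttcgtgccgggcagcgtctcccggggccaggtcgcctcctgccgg
SLC12A4: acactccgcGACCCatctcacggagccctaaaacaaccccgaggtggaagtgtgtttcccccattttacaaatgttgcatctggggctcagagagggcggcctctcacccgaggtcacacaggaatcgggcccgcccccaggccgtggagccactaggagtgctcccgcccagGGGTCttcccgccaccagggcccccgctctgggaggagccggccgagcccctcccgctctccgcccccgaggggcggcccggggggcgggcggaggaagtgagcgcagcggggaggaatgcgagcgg
ARPC4: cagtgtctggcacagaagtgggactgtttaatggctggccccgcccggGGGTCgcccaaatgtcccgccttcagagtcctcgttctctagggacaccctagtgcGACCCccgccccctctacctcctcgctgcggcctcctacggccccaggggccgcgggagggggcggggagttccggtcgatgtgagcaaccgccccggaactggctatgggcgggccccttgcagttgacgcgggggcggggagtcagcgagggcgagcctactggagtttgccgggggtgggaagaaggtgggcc
ASXL1: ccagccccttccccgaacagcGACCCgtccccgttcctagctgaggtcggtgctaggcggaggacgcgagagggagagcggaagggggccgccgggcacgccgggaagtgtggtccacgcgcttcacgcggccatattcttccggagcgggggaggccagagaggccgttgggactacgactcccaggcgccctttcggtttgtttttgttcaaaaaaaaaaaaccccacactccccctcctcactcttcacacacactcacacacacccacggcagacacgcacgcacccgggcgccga

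Summits, the points of highest signal within a region, were placed on these letters by counting from 1 at the window's 5′ end. In TNFAIP1 the 195C>G summit lay at position 145, 27 bp from the nearest core, and the WT summit lay at position 125, 7 bp from it. In CIB2, which holds 3 cores, these distances were 20 bp for 195C>G and 6 bp for WT. SLC12A4 had a core 12 bp from the 195C>G summit and 6 bp from the WT summit. In ARPC4 the distances were 3 bp for 195C>G and 24 bp for WT, and in ASXL1 they were 11 bp for 195C>G and 25 bp for WT. These windows were picked for a core near a summit. C14orf119, a promoter of like rank with 2 cores in its window, had the nearest one 80 bp from the 195C>G summit and 47 bp from the WT summit.

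PELP1 (chr17:4704088-4704387, minus strand), POLG (chr15:89334775-89335074, minus strand) and TEX10 (chr9:100352893-100353192, minus strand) are shown because they ranked among the strongest regions and their windows hold no GACCC on either strand.
PELP1: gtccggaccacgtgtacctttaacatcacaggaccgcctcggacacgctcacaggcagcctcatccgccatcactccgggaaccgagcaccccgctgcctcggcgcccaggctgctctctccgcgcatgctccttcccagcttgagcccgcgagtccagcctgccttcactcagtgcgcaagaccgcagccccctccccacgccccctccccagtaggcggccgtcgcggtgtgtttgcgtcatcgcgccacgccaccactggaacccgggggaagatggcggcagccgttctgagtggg
POLG: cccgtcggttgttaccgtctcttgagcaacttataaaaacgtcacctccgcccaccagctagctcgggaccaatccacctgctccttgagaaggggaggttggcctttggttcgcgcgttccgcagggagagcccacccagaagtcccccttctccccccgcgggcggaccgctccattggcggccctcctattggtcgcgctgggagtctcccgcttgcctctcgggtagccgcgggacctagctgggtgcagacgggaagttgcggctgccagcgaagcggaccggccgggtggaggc
TEX10: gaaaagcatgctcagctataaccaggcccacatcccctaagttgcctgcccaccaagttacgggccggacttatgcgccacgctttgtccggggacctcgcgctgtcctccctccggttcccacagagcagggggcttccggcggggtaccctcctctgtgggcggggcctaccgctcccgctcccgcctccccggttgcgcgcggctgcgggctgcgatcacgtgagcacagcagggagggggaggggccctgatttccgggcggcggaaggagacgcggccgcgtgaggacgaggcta

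Both summits of these regions lay inside the printed letters, at positions 227 (195C>G) and 200 (WT) in PELP1, 145 and 158 in POLG, and 107 and 102 in TEX10. The PELP1 window also lacked the GC box GGGCGG, and its WT summit stood in a C-rich stretch. The absence of a match says only that these letters are not in the window.

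The strongest of the 2409 regions belonged to PELP1, which encodes a coregulator of nuclear receptors that also takes part in ribosome maturation. It stood at place 6 of the K562 order, its signal was 312 in 195C>G (rank 3) and 306 in WT (rank 4), and its nearest BCL11A region was 17182 bp away. TEX10, which encodes a partner of PELP1 in ribosome maturation, stood at place 248 in K562, with signals of 206 in 195C>G and 192 in WT. Both therefore lay far above the median signal of the 2409 regions, which was 47.5 in 195C>G and 49.9 in WT.

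Behind PELP1 in the K562 order came TRAF4 (place 10), an adaptor of cytokine receptor signalling. A region within 1 kb of starts of both C14orf119 and ACIN1 stood at place 16, and ACIN1 encodes the apoptosis and splicing protein acinus. The promoter shared by TNFAIP1, a BTB adaptor of ubiquitin ligases, and IFT20, a ciliary transport gene, stood at place 22. CIB2, for a calcium-binding protein, was at place 24, and SSBP3, for a partner of the erythroid cofactor LDB1, at place 40. POLG, the mitochondrial DNA polymerase gene, was at place 46, and SLC12A4, for a potassium-chloride cotransporter, at place 47. FUK, for fucose kinase, TP53RK, for a kinase that acts on p53, and a region near starts of both DTL and INTS7 stood at places 57 to 60. ASXL1, a chromatin regulator gene often mutated in myeloid disease, was at place 76.

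A high place in K562 did not go with an equally high signal in HUDEP-2 at each of these promoters. TRAF4 had a signal of 75.8 (rank 2483) in 195C>G and 77.7 (rank 2206) in WT. TP53RK had 95.1 (rank 1372) in 195C>G and a WT rank of 2848. The 195C>G signal was 154 at C14orf119, 154 at TNFAIP1, 163 at CIB2 and 181 at SSBP3, and the WT signal was 139, 168, 191 and 124 at the same promoters in that order. POLG had 197 in 195C>G and 199 in WT, and SLC12A4 had 145 in 195C>G and 205 in WT. All of these lay above the medians of the 2409 regions in both lists.

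The regions of best rank in HUDEP-2 were largely the same in both lists. Of the 10 best in 195C>G and the 10 best in WT, PELP1, ZSCAN31, HIST1H2AM, RNF14, ASXL1, ASPSCR1, POLG and ASB1 were in both, while TEX10 and PLCD3 were among the 10 in 195C>G and ZNF526 and SLC12A4 among the 10 in WT. ZSCAN31, which encodes a zinc-finger protein, had signals of 235 in 195C>G and 284 in WT but only place 525 in K562. HIST1H2AM, a histone H2A gene, had 218 in 195C>G and 200 in WT at place 844 in K562. RNF14, a ubiquitin ligase gene, had 217 in 195C>G and 246 in WT. ASPSCR1, whose product tethers glucose transporter vesicles, had 215 in 195C>G and 251 in WT, and ASB1, a ubiquitin ligase adaptor gene, had 197 in 195C>G and 242 in WT. Signals of different lists are on scales of their own and single libraries were measured, so these pairs are given side by side without a difference.

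**Figure D1:**
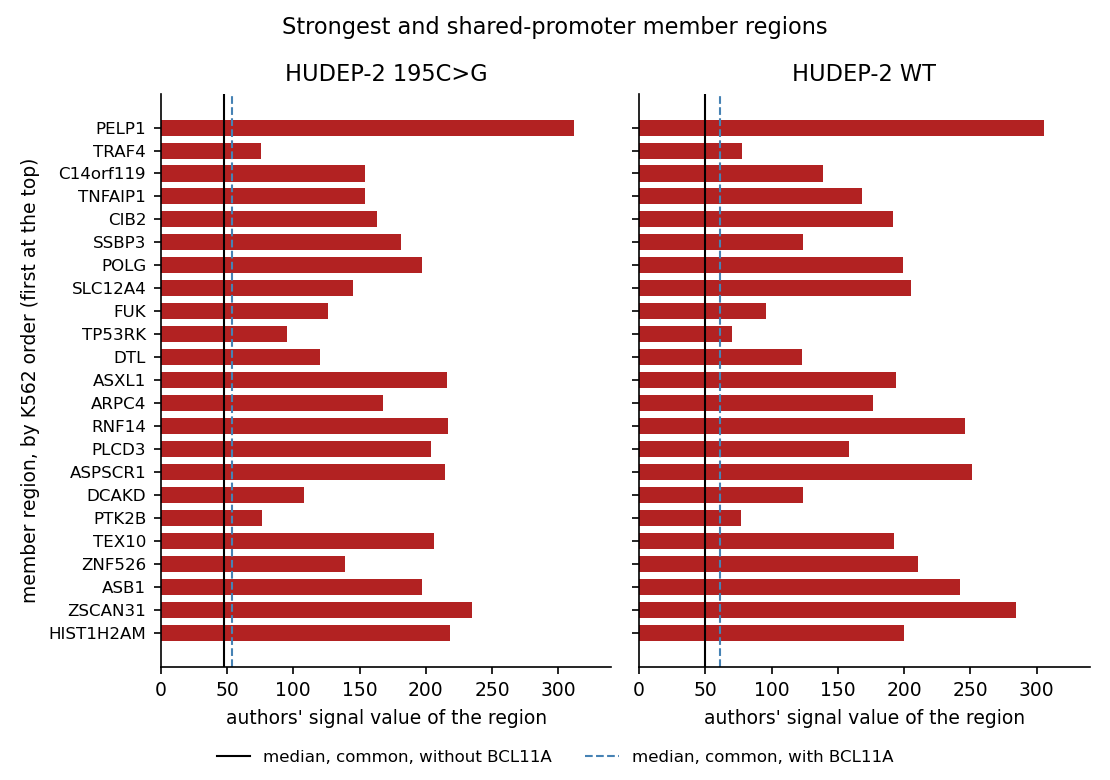
Authors' signal value (x axes, no unit, each list on its own scale) in HUDEP-2 195C>G (left) and HUDEP-2 WT (right) for the 23 regions that ranked best in a list or lay at shared promoters, listed from top to bottom by K562 order. Solid lines are the medians of the 2409 regions without BCL11A (47.5 in 195C>G, 49.9 in WT) and dashed lines those of the 1361 common regions with BCL11A (53.9 and 61.0). Every bar passes both medians, and PELP1 is the longest in each panel.

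The regions without BCL11A held the strongest common promoter region in each HUDEP-2 list, PELP1, but their medians lay behind those with BCL11A. Their median place in the K562 order was 6344 (95% interval 6079 to 6642), against 5529 (5100 to 6036) for the common regions with BCL11A and 10427.5 (10127 to 10679) for the other K562 promoter regions. In 195C>G their median signal was 47.5 (46.6 to 48.5), against 53.9 (52.6 to 55.7) for the common regions with BCL11A, and in WT it was 49.9 (48.2 to 51.2) against 61.0 (58.7 to 62.8). The whole lists had median signals of 40.0 in 195C>G and 25.6 in WT. The regions without BCL11A had a median width in K562 of 377 bp, against 436 bp with BCL11A and 350 bp for the other K562 promoter regions. A wider region offers more bases for a BCL11A region to overlap, so the selection itself bears on this width. Intervals here and elsewhere cover counting error only, since regions are not replicates, and the lists themselves chose the regions.

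Along the K562 order the regions without BCL11A became a smaller part of all promoter regions. In the first decile they were 45.1% of 725 regions, with 34.2% common with BCL11A and 20.7% other. In the last decile they were 24.0%, with 13.5% common with BCL11A and 62.5% other. Among common regions alone, the share without BCL11A was 56.9% (52.7 to 61.0%) in the first decile, 73.5% (68.4 to 78.1%) in the sixth and 64.0% (58.0 to 69.7%) in the last.

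Ranked by HUDEP-2 signal, the common promoter regions showed a steadier gradient. Without BCL11A were 54.0% (50.3 to 57.6%) of the strongest quintile in 195C>G, then 62.6, 64.1, 68.1 and 70.8% (67.4 to 74.0%) of the weakest. In WT the quintiles held 49.9% (46.2 to 53.5%), 59.9, 65.3, 69.9 and 74.5% (71.3 to 77.6%). The common regions with the highest ZBTB7A signal were thus nearly evenly divided between those with and without BCL11A in WT.

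Within the 2409 regions the order was shared most closely by the HUDEP-2 lists. The Spearman correlation of the 195C>G rank with the WT rank was 0.688, that of the K562 order with the 195C>G rank 0.425 and that with the WT rank 0.439 (n = 2409 regions, which share libraries within each list and are not independent). The 195C>G and WT summits were a median of 43 bp apart, and 1327 (55.1%) of the pairs lay within 50 bp. At RNF14, ASB1 and TEX10 the summits were 7, 2 and 5 bp apart, and at HIST1H2AM they fell on the same base. Among common regions with BCL11A the median was 41 bp and 57.1% lay within 50 bp.

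The selection required a midpoint within 1 kb of a start, and positions within that limit are given as a description. Their midpoints had a median of 30 bp downstream of the nearest start (14 to 42 bp), against 15 bp with BCL11A and 7 bp for the other K562 promoter regions. Of the 2409 midpoints, 712 (29.6%) lay within 250 bp upstream, 638 (26.5%) from the start to 250 bp downstream, 667 (27.7%) 250 bp or more downstream and the remaining 16.3% more than 250 bp upstream. The share 250 bp or more downstream was 27.7% (25.9 to 29.5%) without BCL11A, against 21.9% (19.7 to 24.2%) with it and 26.2% for the other K562 promoter regions. TRAF4, at 504 bp, and ZSCAN31, at 950 bp, are examples downstream of the nearest start, and CIB2, at -111 bp, and ASXL1, at -245 bp, lie upstream. PELP1 lay 160 bp downstream of its nearest annotated start. The printed PELP1 window uses another start, and the midpoint and both summits lay upstream of that one.

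The limits of the selection fell through some well-known genes. Just inside 1 kb were ENO1 (999 bp), MYB (998 bp) and MEMO1 (997 bp), and just outside were a region of GIPR at 1001 bp and regions of SSBP3 and FXYD3 at 1005 bp. The smallest overlaps with 195C>G that counted were 1 bp at ANP32E, 3 bp at CDK2AP1 and 4 bp at STX16, and with WT 4 bp at RINL, 14 bp at ZBTB45 and 17 bp at ZRANB2. BCL11A regions abutted, without a shared base, the regions of COQ8B with ITPKC and of DRAM1. SMTN with 1 bp, and PGD and WWP2 with 3 bp each, were counted as having BCL11A.

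Absence of an overlapping BCL11A region did not mean that none was near. A BCL11A region lay within 500 bp of 418 (17.4%) of the 2409 regions, within 1 kb of 532 (22.1%) and within 10 kb of 847 (35.2%), and the median gap was 26228 bp. At TRAF4 and SLC12A4 the gap was 21 bp, at SSBP3 723 bp and at PLCD3 717 bp, whereas at TEX10 it was 276198 bp and at TP53RK 350738 bp. Of the 2249 genes with a region, 561 (24.9%, 23.2 to 26.8%) had a BCL11A region within 1 kb of a start, against 24.6% of all 18069 protein-coding genes. The selection had removed every region that a BCL11A region overlapped, so the share of 24.9% was shaped by it. These shares are therefore given side by side, and no conclusion on BCL11A at these genes is drawn from them.

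The 2409 regions fell at 2156 separate sites after overlapping ones were merged. They lay at 2249 genes, 12.4% of the 18069 protein-coding genes off chromosome 11, while 1302 genes (7.21%) had a common region with BCL11A and 147 had both kinds. A single region was found at 1865 of the genes, 2 at 346, 3 at 34 and 4 at 4. One gene was within 1 kb for 2148 regions, 2 genes for 256 and 3 genes for 5.

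Shared promoters, where genes start in opposite directions, were frequent. Of the 2249 genes, 365 (16.2%, 14.7 to 17.8%) belonged to a divergent pair, with starts of opposite strands within 1 kb. The share was 16.1% with BCL11A, 15.0% of genes with another K562 promoter region and 10.2% of all protein-coding genes. The intervals of all 3 kinds of ZBTB7A promoter lay above the share of all genes and overlapped each other. Nearness to starts of 2 genes was not enough to be counted as a divergent pair. The regions near C14orf119 with ACIN1 and near DTL with INTS7 were not counted. Among the counted pairs, TNFAIP1 with IFT20 was placed highest in K562. Next came ARPC4, an Arp2/3 actin-nucleation subunit gene, with TADA3, an adaptor gene of histone acetyltransferase complexes, at place 96. PLCD3, a phospholipase gene, came next at place 154, then DCAKD, for a coenzyme A kinase domain protein, with NMT1, for a protein myristoyltransferase, at place 204. PTK2B, a tyrosine kinase gene, with TRIM35 stood at place 225, with signals of 76.7 in 195C>G and 76.9 in WT.

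Genes with a region had a median length of 31580 bp, against 32558.5 bp with BCL11A, 26019 bp with another K562 promoter region and 24135 bp for all protein-coding genes. Single-exon genes were 27 of the 2249, against 0.92% with BCL11A, 2.12% with another K562 promoter region and 5.64% of all. HIST1H2AM was the only one of the 70 clustered histone genes, which are short and mostly intronless, with a region. This was 1.43% (0.036 to 7.70%), against 12.4% of all genes, and 9 of the 70 had a K562 promoter region of any kind. The HIST1H2AM midpoint lay 816 bp downstream of the start, and with the midpoint limit at 500 bp none of the 70 had a region.

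The X chromosome stood out in the split by BCL11A. Of its 48 common promoter regions 45 (93.8%, 82.8 to 98.7%) had no BCL11A region, against 63.9% over all chromosomes. The X held 1.87% of the regions without BCL11A, 0.22% of the common regions with BCL11A and 2.49% of all K562 promoter regions. Examples are ZBTB33, which encodes the methyl-CpG-binding protein Kaiso, with signals of 46.8 in 195C>G and 52.9 in WT, and RAB9A, for a GTPase of endosome traffic, with 31.4 in 195C>G and 54.5 in WT. The whole BCL11A list had 1.31% of its regions on the X, against 1.28% in the 195C>G list, 1.47% in the WT list and 2.08% in the K562 list. These whole-list shares include distal regions and chromosome 11, unlike the promoter regions above. The X is named because its split stood out among the chromosomes, and the cause was not tested. By chromosome, the regions were between 21.9% of the K562 promoter regions, on chromosome 21, and 42.1%, on chromosome 20, and they were 27.9% on chromosome 19.

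Promoter letters were examined in RefSeq windows, which matched 1868 (83.1%) of the 2249 genes. In the 1859 windows of distinct sequence used, the median GC content was 65.3%. It was 67.7% with BCL11A, 67.0% for the other K562 promoter regions and 63.0% for all genes. Windows rich in CpG, with a GC content of at least 55% and an observed to expected CpG ratio of at least 0.65, were 78.1% (76.1 to 79.9%), against 82.4% with BCL11A, 76.4% for the others and 58.7% of all. ZBTB7A promoters of all 3 kinds were thus more often CpG-rich than promoters at large. A gene with several kinds of region was counted in the earliest of these groups.

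Motif letters were counted on both strands, and matches of different motifs may share bases. GACCC was in 1104 (59.4%, 57.1 to 61.6%) of the windows, against 65.4% with BCL11A, 57.6% for the other K562 promoter regions and 52.2% of all windows. TGACCA was in 7.10%, against 9.12% with BCL11A, 6.83% for the others and 9.18% of all. The ETS core CCGGAAG was in 21.0%, against 22.3% with BCL11A, 17.3% for the others and 14.4% of all. GGGCGG was in 72.4%, against 76.8%, 76.5% and 59.9%, and TATAAA in 4.63%, against 5.60%, 4.84% and 9.29%, in the same order of groups. GACCC somewhere in the window was thus common in every group.

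GACCC was denser close to the summits than farther out in the same windows. Where the window held all 50 bp on either side of the summit, GACCC was counted within 50 bp of it and in the window's bases beyond 100 bp from it. Around the 195C>G summit of 354 regions there were 5.37 matches per kb near and 2.38 per kb far, a ratio of 2.26. Around the WT summit of 412 regions the values were 5.79 and 2.54 per kb, a ratio of 2.28, and around the K562 midpoint of 486 regions 6.15 and 2.34 per kb, a ratio of 2.63. The same letters reversed, CCCAG, had ratios of 1.16, 1.17 and 1.27 at these points. For common regions with BCL11A the GACCC ratios were 1.38 at the 195C>G summit, 1.82 at the WT summit and 1.72 at the K562 midpoint. Their near values were 5.42, 5.85 and 5.83 per kb at these points, and their far values 3.91, 3.22 and 3.38 per kb. GACCC near these points was thus about as dense with BCL11A as without, and the ratios differed mainly through the far values. For the other K562 promoter regions the ratios were 1.40 at the WT summit of 241 regions and 1.95 at the K562 midpoint.

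The decline with distance was gradual. At the 195C>G summits of 511 regions GACCC fell to 2.67 matches per kb at 150 to 300 bp, against 6.60 per kb within 25 bp, while CCCAG had 5.67 and 7.31 per kb at these distances. Of all words of 6 letters with at least 50 matches near, GACCCC had the highest ratio of near to far at each of the 3 points, with 3.23 at the 195C>G summit, 2.97 at the WT summit and 4.48 at the K562 midpoint. Both the reversed letters and the words were chosen for comparison after the data had been seen. Near the WT summit GACCC was present in 54.0% (45.3 to 62.6%) of the strongest tertile of regions by WT rank, 40.1% of the middle and 39.1% (30.9 to 47.8%) of the weakest, and near the 195C>G summit in 43.2, 43.2 and 44.1% of the tertiles by 195C>G rank. CCCAG was near the WT summit in 49.6, 51.8 and 44.2% of these tertiles, and near the 195C>G summit in 52.5, 44.1 and 48.3%. More than 1 in 3 regions of every tertile thus had the core near the summit. Except in the strongest WT tertile, this was no more frequent than the reversed letters. Many strong regions, PELP1, POLG and TEX10 among them, had no core near the summit.

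Genes were then grouped by function, each list being read against the 12.4% of all protein-coding genes with a region. Counts with BCL11A are to be read beside the 7.21% of all genes with a common region with BCL11A. A K562 promoter region of any kind was at 33.3% of all genes. The 95% intervals of 25 of the 33 lists held the share of 12.4%, and those of 7 lay above it. These 7 lists also had K562 promoter regions of any kind more often than all genes. Such regions were at 12 of 19 p53 and apoptosis, 16 of 25 corepressor, 22 of 38 ZBTB and 37 of 65 chaperonin and heat shock genes. They were also at 26 of 54 autophagy and lysosome and 37 of 71 mitochondrial ribosomal protein genes. A share above 12.4% is thus not read as particular to regions without BCL11A. Of 30 erythroid transcription factor genes 9 (95% interval 14.7 to 49.4%) had a region without BCL11A and 8 had a common region with BCL11A, 3 of them having both. They were TCF3, for an E protein that pairs with TAL1, STAT5B, a mediator of erythropoietin signalling, KLF1, the master activator of adult globin, MYB, E2F2, KLF3, NFE2L2, ETV6 and ZBTB7A. TCF3 stood at place 103 in K562, with signals of 46.2 in 195C>G and 88.1 in WT, and STAT5B had 89.7 in 195C>G and 78.4 in WT. KLF1 had 39.2 in 195C>G and 40.6 in WT, below the median of the 2409 regions in both. With the midpoint limit at 500 bp, 4 of the 9 remained, since KLF1, MYB and TCF3, for example, lay farther than that from a start. These 4 were 13.3% of the list, beside 10.2% of all genes at that limit. Of the 30 genes 23 had a K562 promoter region of any kind, and 26.7% had a common region with BCL11A. The share with BCL11A was thus above that of all genes too.

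Corepressor genes, several of whose products are partners of ZBTB7A or BCL11A, had 8 of 25 (32.0%, 14.9 to 53.5%) with a region and 3 with a common region with BCL11A. With the midpoint limit at 500 bp the count was 4 (16.0%), beside 10.2% of all genes. HDAC2, a NuRD deacetylase gene, had signals of 122 in 195C>G and 140 in WT. RCOR1, for the CoREST scaffold, had 62.2 in 195C>G and 73.5 in WT, and SIN3B had 28.6 in 195C>G and 52.9 in WT. The others were GATAD2A, GATAD2B and RBBP7 of NuRD, KDM1A, the histone demethylase LSD1, and CTBP2. Of 12 KMT2 and SETD1 complex genes 4 (33.3%, 9.92 to 65.1%) had a region, namely ASH2L, RBBP5 and WDR5, for core subunits shared by these methyltransferases, and SETD1A, for a catalytic subunit, against 1 with BCL11A.

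The ZBTB family itself had 12 of 38 (31.6%, 17.5 to 48.7%), led by ZBTB33, ZBTB17, for the MYC partner MIZ1, and ZBTB40, against 5 with BCL11A. ZBTB17 had signals of only 28.1 in 195C>G and 15.9 in WT, whereas ZBTB40 had 81.2 in 195C>G and 90.1 in WT. By contrast 55 of 518 ZNF genes (10.6%, 8.10 to 13.6%) had a region and 56 had one with BCL11A, and ZNF526, at place 249 in K562, had the best place among them with signals of 139 in 195C>G and 211 in WT.

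ZBTB7A had 2 common promoter regions of its own. The one without BCL11A (chr19:4066066-4066687) stood at place 12053 in K562, and the one with BCL11A (chr19:4066963-4067975) at place 1106. The same 195C>G region, with a signal of 63.2, overlapped both, while in WT the one without BCL11A had a signal of 35.8 and the one with it 117. BCL11A had no K562 promoter region. Among globin genes off chromosome 11, HBQ1, for θ-globin, had a region without BCL11A (chr16:180199-180568) at place 873, with signals of 108 in 195C>G and 109 in WT and a BCL11A region 533 bp away. HBZ, for embryonic ζ-globin, had 2 common regions with BCL11A, and HBA1, HBA2 and HBM had no K562 promoter region.

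Genes of heme and iron had 6 of 28 (21.4%, 8.30 to 41.0%) with a region, and 7 with a common region with BCL11A. ALAD, for an early enzyme of heme synthesis, had signals of 73.8 in 195C>G and 127 in WT, SLC11A2, for the iron transporter DMT1, 35.3 in 195C>G and 58.6 in WT, and FTL, for ferritin light chain, 51.7 in 195C>G and 67.5 in WT. Red cell membrane genes had 4 of 28 (14.3%, 4.03 to 32.7%), namely EPB41 and EPB42 of the membrane skeleton, the glucose transporter gene SLC2A1 and BSG, against 7 with BCL11A. EPB42 had the highest signals of the 3 placed first, 137 in 195C>G and 105 in WT. In glycolysis 3 of 17 genes (17.6%, upper 95% limit 43.4%) had a region, ENO1, BPGM, for the enzyme that makes 2,3-bisphosphoglycerate, and PKM. With the midpoint limit at 500 bp only 1 of the 17 (5.88%) had one, under the 10.2% of all genes at that limit, since ENO1 and PKM lay at 999 and 990 bp.

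Marker genes of other lineages had few regions by count, and the interval of each list held the share of all genes. None of 13 megakaryocyte markers and none of 13 hepatocyte and neuron markers had a region, counts of 0 with an upper 95% limit of 24.7% each. Of 15 myeloid markers only CEBPA had one (6.67%, 0.17 to 31.9%), with signals of 36.6 in 195C>G and 43.2 in WT. Of 12 lymphoid markers CD79A and CD79B, subunits of the B cell receptor, had one (16.7%, 2.09 to 48.4%), and none did with the midpoint limit at 500 bp, the signals at CD79B being 40.2 in 195C>G and 17.0 in WT.

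Genes for protein folding and breakdown were examined next. The chaperonin and heat shock list had 17 of 65 (26.2%, 16.0 to 38.5%) with a region, against 11 with BCL11A. DNAJC7 had signals of 64.8 in 195C>G and 73.6 in WT, and TCP1 and CCT8, for chaperonin subunits, 40.9 and 38.8 in 195C>G and 44.3 and 58.3 in WT. Proteasome genes had 9 of 41 (22.0%, 10.6 to 37.6%), with PSMD11 at 141 in 195C>G and 83.0 in WT and PSMD6 at 122 in 195C>G and 110 in WT. Ubiquitin conjugation and cullin genes had 11 of 48 (22.9%, upper 95% limit 37.3%, the interval holding the share of all genes), led by UBE2Q2, UBE2V2 and CUL3, the cullin that BTB adaptors such as TNFAIP1 bind. The autophagy and lysosome list, drawn up by symbol, had 14 of 54 (25.9%, 15.0 to 39.7%), against 4 with BCL11A. ATG14, for a subunit of the autophagy lipid kinase, had 113 in 195C>G and 145 in WT, and VPS72, in spite of its symbol a chromatin remodeller subunit gene, had 102 in 195C>G and 87.7 in WT.

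In the lists of genome maintenance and cell death, DNA repair had 8 of 31 (25.8%, 11.9 to 44.6%), against 1 with BCL11A, and replication 9 of 37 (24.3%, 11.8 to 41.2%), against 3. ERCC4, for a nuclease of excision repair, stood at place 170 in K562, with signals of 114 in 195C>G and 123 in WT. LIG3, a DNA ligase gene, had 72.2 in 195C>G and 136 in WT. GINS1, for a subunit of the replicative helicase, had 117 in 195C>G and 132 in WT. The p53 and apoptosis list had 7 of 19 (36.8%, 16.3 to 61.6%), the highest share of the 33 lists, and 3 with BCL11A. Its members were the survival genes BCL2L1 and MCL1, the death genes BAK1, BAX, APAF1 and CASP9, and MDM4, for an inhibitor of p53. BCL2L1 had 134 in 195C>G and 142 in WT, and APAF1 80.2 in 195C>G and 106 in WT.

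Mitochondrial ribosomal protein genes had 16 of 71 (22.5%, 13.5 to 34.0%), against 9 with BCL11A. MRPL39, at place 107 in K562, had signals of 131 in 195C>G and 115 in WT, and MRPS33 95.7 in 195C>G and 122 in WT. Cytosolic ribosomal protein genes had 8 of 82 (9.76%, 4.31 to 18.3%), against 12 with BCL11A, with RPL28 at 93.4 in 195C>G and 146 in WT and RPLP0 at 96.3 in 195C>G and 126 in WT. Respiratory chain genes had 13 of 75 (17.3%, 9.57 to 27.8%), against 7 with BCL11A, and splicing genes 16 of 80 (20.0%, 11.9 to 30.4%), against 8. SNRPE, a core splicing gene at place 92 in K562, had 158 in 195C>G and 133 in WT. Nuclear pore genes had 5 of 23 (21.7%, 7.46 to 43.7%), with NUP88 at 158 in 195C>G and 190 in WT.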

How the data were processed

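The submitters' processing notes name Trimmomatic 0.3.2, Bowtie2 2.2.9, Bowtie, Picard, bedtools and the hg38 build. The deposited data hold 4 region lists. The K562 and BCL11A lists pool replicates by irreproducible discovery rate (IDR), per the labels, and the 195C>G and WT lists come from 1 library each. The deposited BCL11A, 195C>G and WT lists give a signal per region, and the authors' 195C>G and WT lists also give a summit and a false discovery rate as −log10. The K562 list gives positions only, so its file order served as rank. Depth is not given.

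Identical regions were counted once, and coordinates are 1-based hg38. Ranks and signals of a region are those of its best overlapping HUDEP-2 region. Transcripts came from the deposited annotation. Python 3.11.15, pandas 2.3.3, numpy 2.4.6, scipy 1.17.1 and matplotlib 3.10.9 were used, and the overlap code was tested on simulated regions. Shares carry exact Clopper-Pearson 95% intervals and medians order-statistic intervals. No test was made. Named genes were the 12 regions placed first in K562, the 10 of best rank in 195C>G and in WT, the 3 of best K562 place in each of 33 gene lists, those at the limits of the selection, the 5 shared promoters placed first, and BCL11A, ZBTB7A and the globin genes. The regions, lists and 14 motifs were chosen with earlier results of these data known. Chromosome 11 was not analysed here, and no sequence was used from chromosome 8. Some named genes are not reported here.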

Additional observations from a re-analysis of the deposited data

How the results depend on the processing

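A reciprocal overlap of at least 50% left 1268 regions, 60.4% of the common ones being without BCL11A, with median ranks of 5819.5 in 195C>G and 5285.5 in WT. The stronger 50% of each list, which shortens the ZBTB7A and BCL11A lists together, left 1378 regions and 75.3% without BCL11A. Within 500 bp of a start 62.3% were without BCL11A, and with no BCL11A region allowed within 1 kb 49.8% were. With the best overlapping region, as used above, the median ranks were 6872 in 195C>G and 5922 in WT. With the mean in its place they were 7878 in 195C>G and 9969 in WT. The lists hold 18784 regions in 195C>G and 36435 in WT, so ranks of the lists are not on one scale. GACCC was in 55.3% of the 1075 windows with at least 30 bases inside the K562 region when only those bases were read, so windows and bases changed together. The cause of these changes was not tested. The count of regions stayed within 1.5 times 2409 with limits of 500 bp (1922) and 5 kb (2963), with no BCL11A within 1 kb (1878), with NR transcripts added (2546), with overlapping regions merged (2116) and, an alternative chosen after seeing the data, without chromosome 19 (2220). Of the 33 gene lists, 30 kept their side of the share of all genes within 500 bp of a start and 29 with the stronger 50% of the K562 order. Those that changed side were lymphoid markers under both settings, TRAF and NF-kappaB and glycolysis at 500 bp, and SLC25 carriers, RNA polymerases I and III and ZNF genes in the stronger 50%. No paired analysis was possible because the lists pool replicates or come from 1 library, and for the same reason no replicate could be left out.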

Other observations

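For each of the gene lists not described above, the 95% interval of the share of genes with a common promoter region without BCL11A held the 12.4% of all protein-coding genes. RAB GTPase genes, for switches of vesicle traffic, had 8 of 57 (14.0%, 95% interval 6.26 to 25.8%), against 4 with BCL11A. RAB23 had signals of 149 in 195C>G and 144 in WT, and RAB3A 82.7 in 195C>G and 121 in WT. Genes for SLC25 mitochondrial carriers had 6 of 46, against 4 with BCL11A, and SLC25A4, for an ADP/ATP carrier of the inner membrane, had 115 in 195C>G and 95.2 in WT. Translation initiation factor genes had 8 of 51 (15.7%), against 6, with EIF4G3 at 111 in 195C>G and 112 in WT. Aminoacyl-tRNA synthetase genes had 5 of 35 (14.3%), against 7 with BCL11A, with YARS at 46.5 in 195C>G and 72.8 in WT.

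RNA polymerase II and Mediator genes had 11 of 74 (14.9%), against 6 with BCL11A. GTF2E1, for a subunit of the general factor TFIIE, had signals of 94.2 in 195C>G and 156 in WT. RNA polymerase I and III genes had POLR3E and POLR3D, 2 of 14, against 2 with BCL11A. The TRAF and NF-kappaB list had 4 of 18 (22.2%, 6.41 to 47.6%), against 2, and 1 of 18 (5.56%) with the midpoint limit at 500 bp, under the 10.2% of all genes at that limit. Behind TRAF4 came TNFAIP3, for the NF-kappaB inhibitor A20, with 76.9 in 195C>G and 86.2 in WT, NFKB1 with 35.6 in 195C>G and 42.4 in WT, and TRAF3.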
